A study of Mus musculus with 6 samples.

Results

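The genes described here are 9 enzymes of hepatic methionine, folate and one-carbon metabolism: Mat1a, Gnmt, Ahcy, Bhmt, Pemt, Cbs, Cth, Mthfd1 and Shmt1. They were chosen by gene symbol and not by a cut on their measured values, though with earlier results of these data known. All 9 were found among the 40803 genes of the count table and had enough reads to be tested. Liver RNA was sequenced from 6 male C57BL6 mice on normal feed, 3 in each of 2 groups, with 1 library per mouse. The rAAV8-Hnf1aos1 mice had received a recombinant adeno-associated virus of serotype 8, a vector that enters hepatocytes, carrying a short hairpin RNA against the long noncoding RNA Hnf1aos1. The rAAV8-Scramble mice had received the same type of vector with a scrambled hairpin. Per the study's methods the hairpin was driven by the U6 promoter, which is active in any cell the vector enters, and both vectors also expressed EGFP from a CAG promoter, so all 6 livers carried a viral genome and a fluorescent protein. The virus was given into the tail vein at about 6 weeks of age, and livers were collected 4 weeks later. No uninjected mice are among these libraries, and the comparison asks how the livers differed with the Hnf1aos1 hairpin relative to the scrambled one.

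One-carbon metabolism moves single carbon units between amino acids, folates and methyl acceptors, and the liver is its main site in mammals. Methionine is activated to S-adenosylmethionine (SAM), the methyl donor of most methylation reactions, and the product left after methyl transfer is hydrolysed to homocysteine. Homocysteine is either methylated back to methionine, with a methyl group from betaine or from folate, or drained through transsulfuration into cysteine and glutathione. The folate cycle supplies the carbon units, mostly from serine, and shares them with purine and thymidylate synthesis.

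The stretches of DNA around the start sites of 5 of the 9 genes are shown because all 5 carry the same short sequence there. Pemt and Ahcy lack it in this stretch and are not shown. Of the genes with it, Bhmt was above 0 between the groups and Gnmt and Cbs below, and Pemt, without it, was below 0 too. A part of this sequence in the differences between the groups was not tested. The stretches run from 100 bases before to 20 bases after the RefSeq start site on GRCm38.p6, and are written 5′ to 3′ on the strand of the gene. Capitals mark CCAAT, or ATTGG where CCAAT lies on the other strand.
Bhmt, chr13:93637739-93637858, minus strand: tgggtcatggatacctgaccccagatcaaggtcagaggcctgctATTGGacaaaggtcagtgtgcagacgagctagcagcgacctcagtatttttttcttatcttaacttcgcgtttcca
Gnmt, chr17:46729146-46729265, minus strand: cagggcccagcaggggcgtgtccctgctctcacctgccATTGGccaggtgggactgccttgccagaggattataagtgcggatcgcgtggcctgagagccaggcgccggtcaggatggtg
Cbs, chr17:31637186-31637305, minus strand: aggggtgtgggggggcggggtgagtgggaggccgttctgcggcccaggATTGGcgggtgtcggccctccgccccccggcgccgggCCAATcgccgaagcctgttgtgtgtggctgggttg
Mthfd1, chr12:76255132-76255251, plus strand: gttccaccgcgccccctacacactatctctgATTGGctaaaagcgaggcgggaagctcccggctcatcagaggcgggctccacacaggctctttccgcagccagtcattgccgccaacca
Shmt1, chr11:60811246-60811365, minus strand: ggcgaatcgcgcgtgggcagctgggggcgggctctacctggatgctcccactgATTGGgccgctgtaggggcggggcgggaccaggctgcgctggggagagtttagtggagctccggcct

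RefSeq promoter windows were found for 7 of the 9 genes, with 2 start sites for Pemt, and not for Mat1a and Cth. Among all 32851 windows of these 120 bases, 20.8% held CCAAT on either strand, against 5 of the 7 genes. In Bhmt the reversed box lay from -56 to -52, in Gnmt from -62 to -58, in Cbs from -52 to -48, in Mthfd1 from -69 to -65 and in Shmt1 from -47 to -43, with base 1 at the start site. In the longer windows, from 250 bases before to 50 after the start site, CCAAT was found for all 7 genes. It was in 7 of their 8 windows and in 37.4% of all promoters. The letters CAAAGT, part of the site of HNF4, were found once, in Gnmt from -221 to -216, against 14.4% of all promoters. Other forms of that site were not searched. TATAAA was in none of the 8 windows of these genes and in 13.6% of all. All motifs were searched on both strands. These are matches of letters only, and no binding was measured.

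Gene totals were 14704746 to 16532510 counts per library in the rAAV8-Scramble group and 18021614 to 19462398 in the rAAV8-Hnf1aos1 group. The 9 genes are abundant, with 2274 to 60178 raw counts in each library, so differences between mice rather than read counting set the precision of their values. Normalized counts below are raw counts scaled by TMM, edgeR's correction for library size and composition, to the mean library. Hnf1aos1, the target of the hairpin, had 512, 491 and 620 normalized counts in rAAV8-Scramble replicates 1, 2 and 3 and 278, 258 and 433 in rAAV8-Hnf1aos1 replicates 1, 2 and 3. The groups did not overlap, and replicate 3 of the rAAV8-Hnf1aos1 group kept the highest level of its group. The log2 fold change was -0.74 (SE 0.195), to 59.8% of scramble, with an edgeR adjusted p of 0.0625, just above the threshold of 0.05. Without rAAV8-Hnf1aos1 replicate 3 it was -1.01, with an edgeR adjusted p of 0.000261, in a fit that called 5.17% of all genes lower. Leaving out any other library gave edgeR adjusted p-values of 0.113 to 0.218 and no call.

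None of the 9 one-carbon genes passed the edgeR test between the groups, DESeq2 called 1 of them, Bhmt, and limma's voom 0. Over all 16327 genes tested, edgeR called 1032, or 6.32%, at a Benjamini-Hochberg adjusted p under 0.05, 3.09% higher and 3.23% lower with the Hnf1aos1 hairpin. The split, 505 higher and 527 lower, was 319 and 729 with library totals and 3030 and 364 with spike-in sizes. At an unadjusted edgeR p under 0.05 there were 3 of the 9 (33.3%), Bhmt above 0 and Pemt and Cbs below, against 23.4% of all genes tested (12% above 0 and 11.4% below). In 3 of the 9 (33.3%), Gnmt, Pemt and Cbs, the groups did not overlap, all lower with the Hnf1aos1 hairpin, against 28.9% of all genes in either direction and 13.7% in that direction. The log2 fold changes ran from -0.28 for Mat1a to 0.48 for Bhmt, and 7 of the 9 were below 0, against 50.1% of all genes. That last count depended on the scaling, with 8 of 9 below 0 when libraries were scaled by their totals and 3 of 9 when they were scaled by their ERCC spike-ins, synthetic RNAs added to the samples. The spike-ins took 1.38 to 1.52% of the counts in the rAAV8-Scramble libraries and 1.18 to 1.24% in the rAAV8-Hnf1aos1 libraries, and scaling by them moved the median of all genes by 0.20 on the log2 scale. In whole liver, fewer cells of a type and less RNA per cell cannot be told apart.

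**Figure D1:**
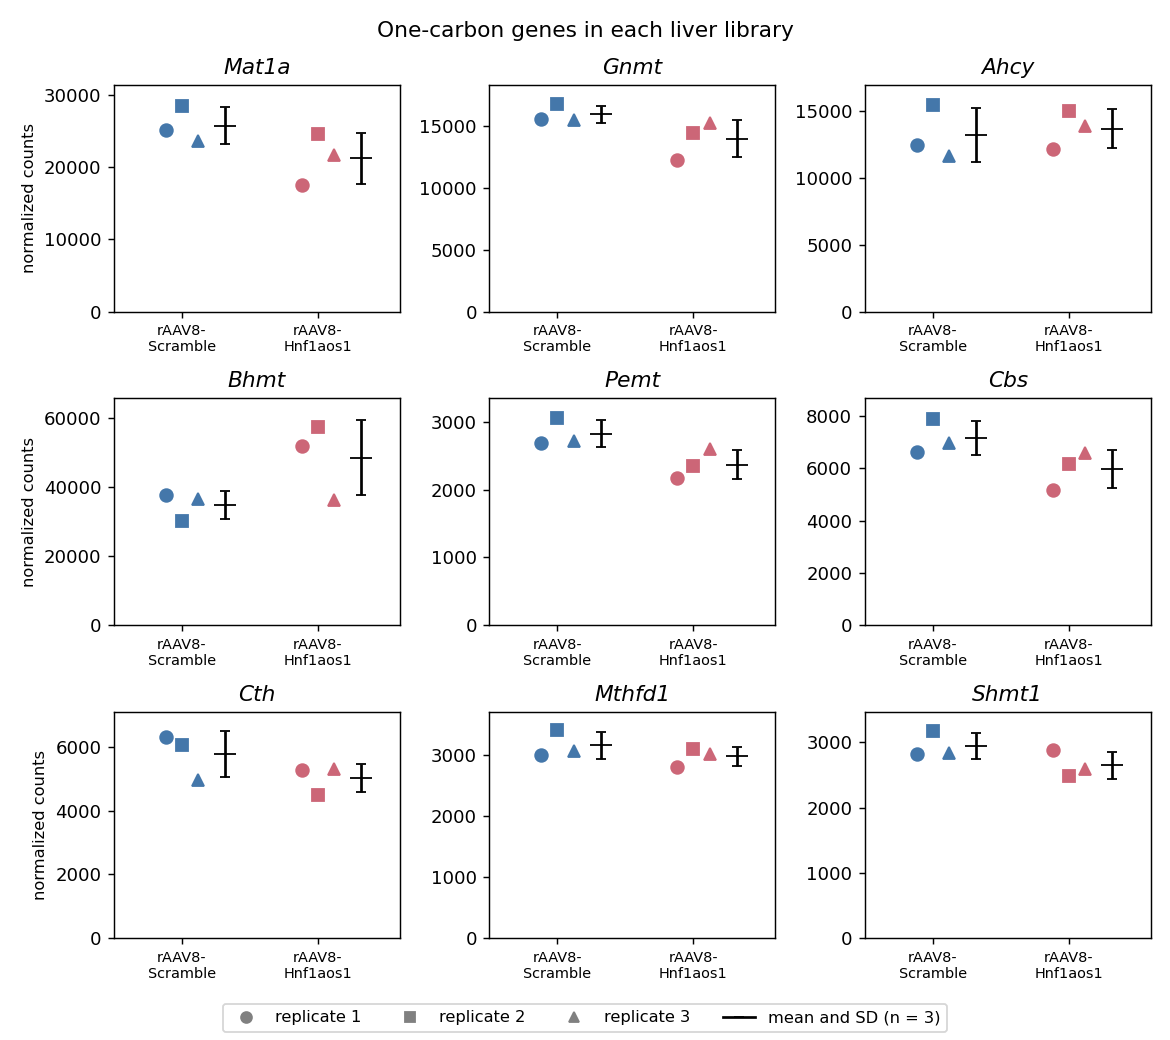
Normalized counts of each of the 9 genes in each library (y axis, from 0) by group (x axis), with replicates 1 to 3 as circles, squares and triangles and the mean and SD (n = 3) as bars. Gnmt, Pemt and Cbs lie lower in all 3 rAAV8-Hnf1aos1 libraries than in any rAAV8-Scramble library under this scaling (not with spike-in sizes), and Bhmt is high in replicates 1 and 2 of the rAAV8-Hnf1aos1 group but not in replicate 3.

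Bhmt encodes betaine-homocysteine methyltransferase, which uses betaine to turn homocysteine back into methionine and is one of the most abundant enzymes of liver cytosol (chr13:93616675-93637961, minus strand, gene positions here and below from GENCODE M21 on GRCm38, overlapped on the other strand by the antisense gene Gm15622). Its normalized counts were 37504, 29992 and 36502 in the rAAV8-Scramble libraries and 51910, 57186 and 36305 in the rAAV8-Hnf1aos1 libraries. Replicates 1 and 2 with the Hnf1aos1 hairpin stood above every scramble library, and replicate 3 lay among them, so the groups overlapped. The means were 34666 ± 4079 (SD, n = 3) and 48467 ± 10858 (SD, n = 3), and the coefficient of variation was 11.8% in the rAAV8-Scramble and 22.4% in the rAAV8-Hnf1aos1 group. The log2 fold change was 0.48 (SE 0.166, 95% interval 0.12 to 0.85), the largest of the 9 in size, with an edgeR adjusted p of 0.110. An exact two-sided permutation test on the 6 values gave p = 0.3, where 0.1 is the smallest p that 3 against 3 can give.

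Whether Bhmt passed the threshold depended on 1 library and on the method. Without rAAV8-Hnf1aos1 replicate 3 its log2 fold change was 0.66 with an edgeR adjusted p of 0.00618, in a fit that called 6.06% of all genes higher, and leaving out any of the other 5 libraries gave 0.35 to 0.55 with no call. The library that decided it, replicate 3, was also the one with 433 normalized counts of Hnf1aos1 against 278 and 258 in the other two of its group, and the part of that level in the Bhmt value was not tested. DESeq2 called Bhmt at 0.49 with an adjusted p of 0.0272, where 3.64% of its genes were called higher. edgeR with no filter on low counts called it at 0.48 with an adjusted p of 0.0117, where 3.16% were called higher. With spike-in sizes Bhmt was at 0.69 with an edgeR adjusted p of 0.0138, but 18.6% of all genes were then called higher. Taking off the shifted median of all genes, which largely undoes that scaling, gave 0.48. With those sizes the groups did not overlap for Bhmt, at 33991, 29012 and 33559 scaled counts against 55007, 60926 and 39433, and it was the only one of the 9 for which this held, while 34.6% of all genes were higher without overlap. It was not called by limma's voom, by limma on TPM, or by edgeR with DESeq2's size factors, with library totals, with a minimum mean of 50 counts or with the replicate number as a block.

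Mat1a encodes the liver form of methionine adenosyltransferase, which makes SAM (chr14:41105035-41124412, plus strand). Its normalized counts were 25201, 28561 and 23602 in the rAAV8-Scramble libraries and 17569, 24619 and 21659 in the rAAV8-Hnf1aos1 libraries. Replicate 2 of the rAAV8-Hnf1aos1 group reached into the scramble range, and the other two lay below it. Its log2 fold change, -0.28 (SE 0.135, 95% interval -0.57 to 0.02), was the lowest of the 9, with an edgeR adjusted p of 0.246. The interval covers levels from 0.672 to 1.01 times that of scramble.

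Gnmt, glycine N-methyltransferase, consumes SAM by methylating glycine and so buffers the SAM supply of hepatocytes (chr17:46725664-46729168, minus strand, overlapped on the other strand by the noncoding gene Gm26904). It had 15589, 16724 and 15434 normalized counts in the rAAV8-Scramble and 12260, 14461 and 15199 in the rAAV8-Hnf1aos1 libraries. All 3 libraries with the Hnf1aos1 hairpin were lower, although replicate 3 missed the lowest scramble library by little. Gnmt had a log2 fold change of -0.19 (SE 0.110, 95% interval -0.43 to 0.05; 0.013 with spike-in sizes), with an edgeR adjusted p of 0.329.

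Pemt, phosphatidylethanolamine N-methyltransferase, spends SAM on the synthesis of phosphatidylcholine (chr11:59970614-60046489, minus strand). Its values were 2694, 3059 and 2726 normalized counts in the rAAV8-Scramble and 2169, 2348 and 2596 in the rAAV8-Hnf1aos1 libraries. The groups did not overlap. For Pemt the log2 fold change was -0.25 (SE 0.0989, 95% interval -0.47 to -0.04), with an edgeR adjusted p of 0.149, and -0.053 with spike-in sizes.

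Ahcy, adenosylhomocysteinase, hydrolyses the S-adenosylhomocysteine that every SAM-dependent methylation leaves behind (chr2:155059310-155074497, minus strand, overlapped on the other strand by Gm45609). It had 12475, 15504 and 11639 normalized counts in the rAAV8-Scramble and 12167, 15046 and 13885 in the rAAV8-Hnf1aos1 libraries. The groups covered nearly the same range. At 0.05 (SE 0.130, 95% interval -0.23 to 0.34; -0.018 with library totals), with an edgeR adjusted p of 0.847, the log2 fold change of Ahcy was the smallest of the 9 in size.

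Cbs, cystathionine beta-synthase, commits homocysteine to transsulfuration (chr17:31608894-31637238, minus strand). Normalized counts were 6641, 7905 and 6978 in the rAAV8-Scramble and 5157, 6177 and 6595 in the rAAV8-Hnf1aos1 libraries. The groups did not overlap, with replicate 3 of the rAAV8-Hnf1aos1 group just under replicate 1 of the other. The log2 fold change was -0.26 (SE 0.116, 95% interval -0.52 to -0.01), with an edgeR adjusted p of 0.199, and -0.064 with spike-in sizes. Cth, cystathionine gamma-lyase, takes the next step, to cysteine (chr3:157894248-157925077, minus strand, overlapped on the same strand by Gm43314). It had 6297, 6044 and 4945 normalized counts in the rAAV8-Scramble and 5263, 4501 and 5306 in the rAAV8-Hnf1aos1 libraries. Replicate 3 of the rAAV8-Scramble group fell within the rAAV8-Hnf1aos1 range. Between the groups Cth differed by a log2 fold change of -0.20 (SE 0.116, 95% interval -0.45 to 0.06; 0.0033 with spike-in sizes), with an edgeR adjusted p of 0.330.

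Mthfd1 encodes the cytosolic trifunctional enzyme that interconverts folate-bound carbon units (chr12:76255298-76319803, plus strand, overlapped on the other strand by Gm34868, Gm47525 and Gm47526). Its normalized counts were 2990, 3403 and 3067 in the rAAV8-Scramble and 2798, 3103 and 3021 in the rAAV8-Hnf1aos1 libraries. The groups overlapped, with 2 libraries of each in the range of the other. The log2 fold change was -0.08 (SE 0.0926, 95% interval -0.29 to 0.12; 0.115 with spike-in sizes), with an edgeR adjusted p of 0.624. Shmt1, the cytosolic serine hydroxymethyltransferase, loads carbon from serine onto folate (chr11:60788104-60811718, minus strand, overlapped on the other strand by Smcr8 and Gm24945). It had 2825, 3175 and 2836 normalized counts in the rAAV8-Scramble and 2877, 2479 and 2587 in the rAAV8-Hnf1aos1 libraries. Replicate 1 of the rAAV8-Hnf1aos1 group lay within the scramble range, and the other two lay below it. Shmt1 had a log2 fold change of -0.15 (SE 0.0958, 95% interval -0.36 to 0.06; 0.045 with spike-in sizes), with an edgeR adjusted p of 0.360.

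By role, the 5 genes of the methionine cycle had a median log2 fold change of -0.19, the 2 of transsulfuration -0.23 and the 2 of the folate cycle -0.12. The median of all 9 was -0.19, beside -0.0004 over all genes tested, and it was 0.013 with spike-in sizes, where the median of all genes was 0.20. Taking off that shifted median gave -0.28 for Mat1a to 0.48 for Bhmt. This step largely undoes the spike-in scaling, so it returns values close to those under TMM and is no separate result. Of the 9 genes, none was called lower in any of the 17 alternative fits, and Bhmt alone was called higher, in 4 of them. Replicates of a group differed by more than sampling noise, and edgeR's common biological coefficient of variation was 13.9%, so differences as small as those of Mthfd1 and Ahcy could not be told from none with 3 mice a group.

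**Figure D2:**
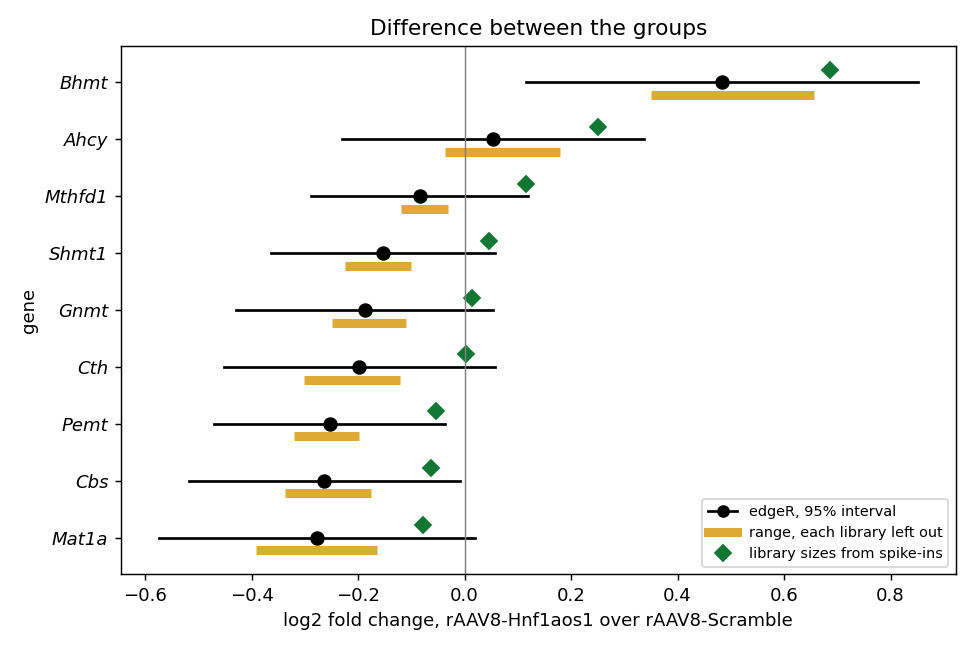
Log2 fold change of each gene, rAAV8-Hnf1aos1 over rAAV8-Scramble (x axis), with genes on the y axis; black points and lines are edgeR estimates with 95% intervals, yellow bars the range with each library left out in turn and green diamonds the estimates with spike-in sizes. Bhmt sits apart at 0.48, the interval of Mat1a reaches from -0.57 to 0.02, and every spike-in estimate lies to the right of its TMM estimate, which takes Gnmt, Cth, Mthfd1 and Shmt1 across 0.

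Levels can be set side by side per transcript length with the deposited TPM values (a unit that scales reads by transcript length and library). Bhmt was the most abundant of the 9 in both groups, at 2184 ± 293 TPM in the rAAV8-Scramble and 2895 ± 662 TPM in the rAAV8-Hnf1aos1 libraries (SD, n = 3). Gnmt followed at 1963 ± 58.4 and 1632 ± 132 TPM, and Mat1a at 957 ± 71.4 and 747 ± 102 TPM. The middle of the order was taken by Ahcy (675 ± 88.8 and 664 ± 50.1 TPM), Cth (412 ± 41.4 and 342 ± 38.1 TPM), Cbs (335 ± 27.3 and 264 ± 25.4 TPM) and Pemt (280 ± 16.3 and 222 ± 15.5 TPM). The folate enzymes Shmt1 (125 ± 6.69 and 107 ± 12 TPM) and Mthfd1 (99 ± 5.86 and 88.5 ± 1.86 TPM) were the least abundant. The order of the means was the same in both groups. Neighbours in it whose single libraries overlapped were Bhmt and Gnmt in the rAAV8-Scramble group, and Mat1a and Ahcy and also Cbs and Pemt in the rAAV8-Hnf1aos1 group. On this scale the groups did not overlap for Mat1a, Gnmt, Pemt, Cbs and Mthfd1, the same 5 genes as with counts scaled by library totals, where 19.2% of all genes were lower without overlap (exact two-sided permutation p = 0.1 each, the smallest possible), and limma on log2 TPM called none of the 9.

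**Figure D3:**
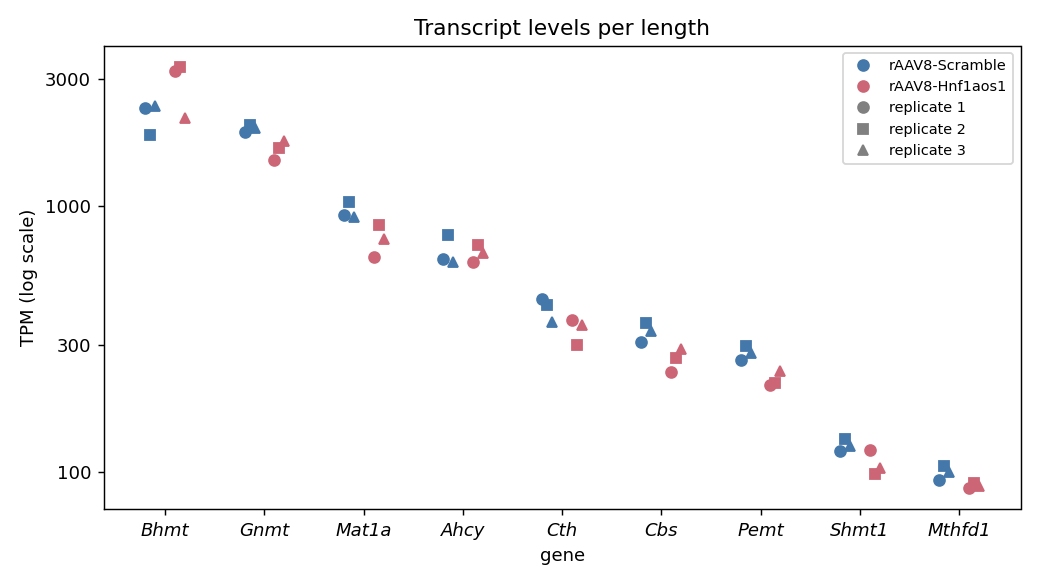
TPM of the 9 genes in each library (y axis, log scale), ordered by their mean level (x axis), in blue for rAAV8-Scramble and red for rAAV8-Hnf1aos1. Levels fall from about 2184 TPM for Bhmt to 99 TPM for Mthfd1 in the rAAV8-Scramble means, and the order of the means is the same in both groups.

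The 9 genes together took 0.702, 0.700 and 0.707% of all TPM in the rAAV8-Scramble libraries and 0.699, 0.752 and 0.638% in the rAAV8-Hnf1aos1 libraries. The scramble libraries were nearly equal in this sum and the others spread around them on both sides. Bhmt alone was 33.2, 26.4 and 33.6% of the sum in the rAAV8-Scramble libraries and 46.0, 44.3 and 33.5% in the rAAV8-Hnf1aos1 libraries, with replicate 3 again in the scramble range. Ratios within a library do not depend on its scaling. The following ones were chosen after the values were seen and carry no test. Bhmt over Mat1a, in TPM, was 2.52, 1.78 and 2.62 in the rAAV8-Scramble and 5.0, 3.93 and 2.84 in the rAAV8-Hnf1aos1 libraries, and Bhmt over Cbs was 7.60, 5.11 and 7.04 against 13.5, 12.5 and 7.41. The groups did not overlap in the first ratio, and overlapped in the second, where replicate 3 of the rAAV8-Hnf1aos1 group lay just under replicate 1 of the other. Gnmt over Pemt, both of which use SAM, was 7.21, 6.81 and 7.05 against 7.05, 7.67 and 7.30, with overlap.

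The genes whose levels ran most like those of Bhmt over the 6 libraries were looked for among 4381 well-expressed genes, by the root mean square difference of their log2 levels, each centred on its own mean. Samhd1, which hydrolyses deoxynucleotides, differed by 0.0719, the complement gene C4a by 0.0834 and the signalling adaptor Pik3ap1 by 0.0854, where the median candidate differed by 0.343. The reads of C4a are uncertain because C4b is a close paralog. Samhd1 had 507, 408 and 483 normalized counts in the rAAV8-Scramble and 747, 753 and 550 in the rAAV8-Hnf1aos1 libraries, and it rose by 0.55 on the log2 scale with an edgeR adjusted p of 0.0383. As with Bhmt, replicate 3 was the lowest of its rAAV8-Hnf1aos1 libraries. Pik3ap1 rose by 0.48 with an edgeR adjusted p of 0.0480, and C4a was at 0.35 with an edgeR adjusted p of 0.146. These 3 genes were picked for likeness to Bhmt over all 6 libraries. Their direction, their level in replicate 3 and their adjusted p-values are therefore not separate evidence.

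Bhmt lies beside its paralog Bhmt2, which methylates homocysteine with S-methylmethionine, and Dmgdh, which oxidises the dimethylglycine that Bhmt releases; both were looked at for their position. On chromosome 13, 17758 bases separate Bhmt from the end of Bhmt2, both on the minus strand. Dmgdh, on the plus strand, begins 130 bases from the start of Bhmt2. Bhmt2 had 2266, 2264 and 2193 normalized counts in the rAAV8-Scramble and 2516, 2522 and 2330 in the rAAV8-Hnf1aos1 libraries. The groups did not overlap, where 15.2% of all genes were higher without overlap, but the log2 fold change of 0.13 (SE 0.0839) had an edgeR adjusted p of 0.370. In TPM they overlapped, with rAAV8-Hnf1aos1 replicate 3, at 136, below every scramble library. With spike-in sizes Bhmt2 was at 0.33 with an edgeR adjusted p of 0.0290, where 18.6% of all genes were called higher. For Dmgdh the log2 fold change was 0.011, on either side of 0 depending on the settings, with an edgeR adjusted p of 0.959. Over the 6 libraries Dmgdh lay between 5841 and 6993 normalized counts.

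Of 75 other genes of the same and adjoining pathways, 74 were tested, 37 were above 0 and 37 below, and 1 was called (1.35%, against 6.32% of all genes), while 5 above 0 and 4 below had an unadjusted edgeR p under 0.05. Ahcyl2, an Ahcy-like protein, had 742, 603 and 661 normalized counts in the rAAV8-Scramble and 1016, 974 and 839 in the rAAV8-Hnf1aos1 libraries. It rose by 0.50 on the log2 scale (SE 0.108, edgeR adjusted p = 0.0248), and all 3 libraries with the Hnf1aos1 hairpin were above the others.

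With 1 library left out, Ahcyl2 was called only without rAAV8-Scramble replicate 1 or rAAV8-Hnf1aos1 replicate 3. Its highest edgeR adjusted p in these fits was 0.131, without rAAV8-Scramble replicate 3, where 0.619% of all genes were called. In the other 8 fits, with all 6 libraries, Ahcyl2 kept its call, at log2 fold changes of 0.42 to 0.70.

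Counts above and below 0 in these lists are under TMM, and with spike-in sizes the median of all genes was 0.20. The genes around the methionine cycle and SAM use had 16 of 21 above 0 (median 0.10), with Ahcyl2 called. Nnmt, which methylates nicotinamide with SAM, had the highest estimate, 0.74, but its SE was 0.552 and its edgeR adjusted p 0.490. Its normalized counts were 267, 550 and 250 in the rAAV8-Scramble and 765, 741 and 278 in the rAAV8-Hnf1aos1 libraries, so 1 library of each group lay at the level of the other. Srm, spermidine synthase, was at 0.51 with an edgeR adjusted p of 0.0578 and no overlap. It was called with DESeq2 (adjusted p = 0.0466) and by edgeR with spike-in sizes (adjusted p = 0.0068), no filter (adjusted p = 0.00232) or rAAV8-Hnf1aos1 replicate 2 left out (adjusted p = 0.0416). In choline, betaine and sarcosine oxidation, before and after the step of Bhmt, 2 of 7 were above 0, and none was called or had an unadjusted p under 0.05 (median -0.06). In cysteine, glutathione and sulfide metabolism, downstream of Cbs and Cth, 9 of 11 were below 0 and none was called (median -0.13), with 1 higher and 3 lower at an unadjusted edgeR p under 0.05. The lowest were Csad, of taurine synthesis, at -0.38 with an edgeR adjusted p of 0.170, and Suox, sulfite oxidase, at -0.36 with an edgeR adjusted p of 0.199. Both were called by edgeR with no filter (adjusted p = 0.0272 for Csad and 0.0428 for Suox) and without rAAV8-Hnf1aos1 replicate 3 (adjusted p = 0.0184 and 0.0303). Among folate carriers and enzymes, 9 of 19 tested were above 0 and none was called (median -0.03), with 1 higher and 1 lower at an unadjusted edgeR p under 0.05. Tyms, thymidylate synthase, stood at -0.33 with an edgeR adjusted p of 0.211. None was called, or had an unadjusted p under 0.05, among the 5 cobalamin genes (3 above 0) and the 11 serine and glycine genes (5 above 0), of which Psph, the last step of serine synthesis, was highest at 0.45 with an edgeR adjusted p of 0.220, and Psat1, an earlier step with few reads, lowest at -0.41 with an edgeR adjusted p of 0.505.

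**Figure D4:**
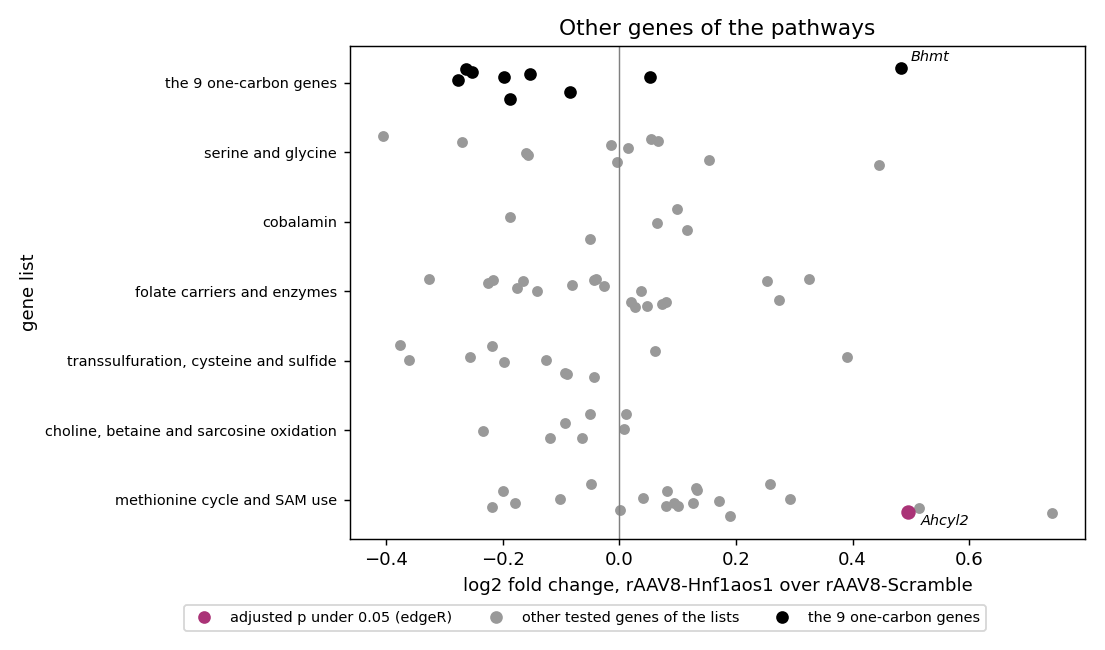
Log2 fold change, rAAV8-Hnf1aos1 over rAAV8-Scramble (x axis), of the 9 one-carbon genes (black) and of 74 other tested genes by list (y axis), with the gene at an edgeR adjusted p under 0.05 in purple and vertical scatter added only for legibility. Ahcyl2 at 0.50 was called, and Bhmt at 0.48 was not.

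The liver label fitted its markers: the summed TPM of 6 hepatocyte markers was 81024 to 87300 in the rAAV8-Scramble and 79322 to 93724 in the rAAV8-Hnf1aos1 libraries, and none was called. All 12 markers of Kupffer cells and macrophages were above 0 and 5 were called higher, against 49.9% and 3.09% of all genes. Their summed TPM was 298 to 356 against 367 to 453, lowest within the rAAV8-Hnf1aos1 group in replicate 3. Cholangiocyte markers summed to 32.7 to 38.9 TPM against 46.8 to 183 without overlap, with none of 4 tested called. Replicate 3 of the rAAV8-Hnf1aos1 group was at 47.8, so only 1 library was far above the others. Singly these markers went both ways, 3 above 0 and 1 below, at log2 fold changes from -1.03 to 1.79. Only 1 was higher without overlap, as were 15.2% of all genes. Skeletal muscle markers summed to 52.2 to 179 against 21 to 58.8, with 5 of 5 below 0 and none called. Of these, 2 had an unadjusted edgeR p under 0.05, against 11.4% of all genes below 0 at that p. Stellate cell markers (171 to 233 against 141 to 186 TPM), endothelial markers (92.1 to 95.9 against 78.9 to 93.5), neutrophil and monocyte markers (3.27 to 6.88 against 5.55 to 12), T and NK cell markers (4.44 to 8.5 against 5.74 to 7.75) and B cell markers (3.93 to 4.90 against 3.59 to 4.71) overlapped between the groups, and none was called. Of the stellate cell markers 8 of 9 were below 0 (median -0.23), and of the endothelial markers 4 of 5. Above 0 were 2 of 3 tested neutrophil and monocyte markers, 3 of 4 tested T and NK cell markers and 3 of 4 B cell markers. The neutrophil and monocyte list and the T and NK cell list held 6 markers each, and those not tested could not be called. No marker was at 0 in all libraries. The part of these differences in the values of the 9 genes was not tested.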

How the data were processed

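Per the study's methods, the authors trimmed the reads with Trimmomatic, aligned them to GRCm38 with STAR and used featureCounts on unique exonic reads. The deposited raw counts cover 40895 features, of which 92 are ERCC spike-ins. The submitters' processing notes name GRCm39 instead, the methods a stranded poly(A) kit and the labels depletion of ribosomal RNA. The strand setting and annotation release are not given in the sources used here, so reads of genes overlapping on opposite strands may be mixed. The authors also deposited TPM values, whose computation is not described. Their normalized counts and their comparison table, which holds fold changes and p-values, were not used here.

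Columns were matched to samples by their labels, and 0 were left unassigned. Spike-ins were not tested, and entered library sizes only in the alternative with spike-in sizes. The groups were compared in R 4.3.3 with edgeR 4.0.16 (TMM, filterByExpr, robust quasi-likelihood fit, group as the only term, Benjamini-Hochberg adjustment over 16327 genes). Alternatives were DESeq2 1.42.0, voom and TPM fits in limma 3.58.1 (log2 of TPM plus 0.1 or 1, with a mean TPM of at least 1 or no filter), other library sizes, no filter, a block for the replicate number, a minimum mean of 50 counts and each library left out. Exact permutation tests used log2 values. The p-values of the fits set the group difference against the spread between mice, estimated in part from all genes. Intervals are 95% intervals of the edgeR fit. Scripts were tested on simulated data. Chi-square statistics between 2 libraries of a group were 7.73 to 31.9 per gene, above sampling noise, so every library was counted as its own sample.

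Members, lists and tests were chosen with earlier results of these data known. Named were the 9 genes, Hnf1aos1, every gene called among the 75 of the wider lists, the 3 highest and 3 lowest of those not called with an average log2 CPM of at least 1, and the 3 genes most like Bhmt in well-expressed genes (average log2 CPM of at least 5). Bhmt2 and Dmgdh were named later, for their position, and Psat1 after its value was seen. Further genes first listed are not reported here. Positions came from GENCODE M21 on GRCm38, which held 71.0% of the symbols, and promoters from RefSeq on GRCm38.p6. Figures used matplotlib 3.10.9.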

Additional observations from a re-analysis of the deposited data

How the results depend on the processing

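Of 153 values of the 9 genes under 17 alternatives, 143 kept their direction and 10 reversed, and none of the 10 was called. With spike-in sizes Gnmt was at 0.0133, Cth at 0.0033, Mthfd1 at 0.115 and Shmt1 at 0.0450. Ahcy was at -0.0177 with library totals, at -0.0182 with each limma fit on TPM, and at -0.0368 to 0.179 with a library left out. Dmgdh was at -0.0590 with library totals, -0.0199 with a minimum mean of 50 counts and -0.0566 to 0.0746 with a library left out. One of the 9 genes, Bhmt, was called higher with DESeq2, with spike-in sizes, with no filter and without rAAV8-Hnf1aos1 replicate 3 (0 to 1 over the libraries left out). The groups did not overlap for 5 of the 9 with library totals (29% of all genes), 1 with spike-in sizes (39.9%) and 3 to 5 with a library left out (35.1 to 43.5%). Of the wider lists, those called higher numbered 2 with DESeq2, 11 with spike-in sizes, 3 with no filter and 0 to 3 with a library left out, and those called lower 2 with no filter and 0 to 2 with a library left out. Over all genes, 319 were called higher with library totals, 3030 with spike-in sizes, 870 with no filter and 38 to 1015 with a library left out, and 1032 were called lower with no filter and 65 to 866 with a library left out. The cause of these shifts was not tested. Hnf1aos1 passed the threshold with DESeq2 (-0.74, adjusted p = 0.00341), voom (-0.77, adjusted p = 0.0491) and no filter (-0.74, adjusted p = 0.00564). It ranged from -1.01 to -0.60 with a library left out, and was then called only without rAAV8-Hnf1aos1 replicate 3.

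Replicate numbers are shared by the groups, but same-numbered libraries did not deviate together (correlations of -0.0226, 0.0231 and 0.00321 across genes), and not every library correlated best with its own number. With the replicate block 429 genes were called higher and 449 lower, 0 of the 9 one-carbon genes, and of the wider lists 2 higher and 0 lower. Hnf1aos1 was at -0.77 with the block (adjusted p = 0.0138), and Srm was called (adjusted p = 0.0405).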
